A study of Mus musculus with 6 samples.

Results

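The genes described here are 10 regulators of cell cycle arrest and the p53 response: Cdkn1a, Cdkn1b, Cdkn1c, Cdkn2a, Cdkn2b, Cdkn2c, Rb1, Trp53, Mdm2 and Ccng1. They were taken by gene name from the 34709 genes of the expression table, and each name matched 1 gene. The libraries came from articular cartilage of male mice aged 18 months, with 3 libraries labelled KO (a purchased knockout line) and 3 labelled wildtype (WT), and RNA-seq measured polyadenylated RNA. The age and sex are those of the study's methods and column names, and no treatment is named for either group. The labels do not say whether a library was 1 animal or a pool, so p-values measure the spread between these libraries.

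Progression from G1 into S phase is driven by cyclin-dependent kinases (CDKs), which phosphorylate the retinoblastoma protein (Rb1) and release E2F transcription factors. The Cip/Kip proteins (Cdkn1a or p21, Cdkn1b or p27, Cdkn1c or p57) bind cyclin-CDK complexes, whereas the INK4 proteins (encoded by Cdkn2a, Cdkn2b, Cdkn2c and Cdkn2d) bind CDK4 and CDK6. p53 (Trp53) is a transcription factor stabilised by DNA damage and other stress, and it activates Cdkn1a, Ccng1 and Mdm2, the last of which encodes the ubiquitin ligase that degrades p53. In cartilage, Cdkn1c is known from hypertrophic chondrocytes of the growth plate, and Cdkn2a is widely used as a transcript of senescent cells.

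Because 3 of the genes are p53 targets, the sequences before their start sites were examined for the p53 decamer, the repeat unit of p53 response elements. RefSeq promoter windows (GRCm38.p6) were held for 8 of the 10 genes, 11 windows in all, and the 250 bases before each start were searched on both strands. Rb1 and Cdkn1c had no window. A decamer was found in windows of 4 genes, Cdkn1a, Mdm2, Ccng1 and Trp53, against 7.13% of all 32851 windows. The stretches are shown 5′ to 3′ with 20 flanking bases and the decamers in capitals. A match is a run of letters and not a measured binding site.

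Cdkn1a: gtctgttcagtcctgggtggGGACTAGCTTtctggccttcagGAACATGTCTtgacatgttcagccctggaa
Mdm2: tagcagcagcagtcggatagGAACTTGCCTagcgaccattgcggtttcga
Ccng1: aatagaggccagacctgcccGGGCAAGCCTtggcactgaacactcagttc
Trp53: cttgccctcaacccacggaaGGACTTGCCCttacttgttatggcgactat

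The Cdkn1a stretch (chr17:29090886-29090957, plus strand) held 2 decamers and lies before the upstream of the 2 RefSeq starts of the gene. The Mdm2 stretch (chr10:117710915-117710964, minus strand) and the Ccng1 stretch (chr11:40755442-40755491, minus strand) held 1 decamer each, beginning 186 and 185 bases before the start. The Trp53 stretch (chr11:69580264-69580313, plus strand) held 1 decamer beginning 75 bases before the start. All 4 stretches lie upstream of the annotated genes, outside exons and introns of these genes.

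The libraries had 52268311 to 63331135 counts each. KO replicates 2 and 3 differed far less than any other pair (Pearson's r of 0.996 across log2(FPKM + 1) of genes, which are not independent replicates, against 0.980 to 0.990 for the other 14 pairs), and they were averaged into 1 sample, which leaves 2 KO and 3 WT samples. On the first principal component (45.9% of the variance) KO replicates 2 and 3 lay at 50.7 and 49.6, while the library labelled KO replicate 1 lay at -24.6, among the WT libraries (-26.2 to -23.9). Pearson's r of KO replicate 1 was 0.982, 0.989 and 0.986 with WT replicates 1 to 3. It was 0.981 with KO replicates 2 and 3, close to that with WT replicate 1. The log2 differences of the tested genes of the list are therefore also given without KO replicate 1, and those of other genes where leaving out KO libraries moved them by over 1.5 times. Markers of cartilage were present, with a summed level of 542 to 1227 FPKM over 9 chondrocyte genes. Most of the sum in each library was Prg4 (402 to 1034 FPKM). Acan was at 13.2 to 22.8 FPKM, Col2a1 at 12.4 to 21.3 FPKM and Sox9 at 0.865 to 2.81 FPKM. FPKM is the number of fragments scaled to transcript length and library size. Marrow cells contributed strongly: 7 erythroid genes summed to 14674 to 35731 FPKM in KO and 41318 to 65052 FPKM in WT, 8 neutrophil genes to 48591 to 60154 FPKM in KO and 25634 to 41996 FPKM in WT, and 7 B cell genes to 81.7 to 129.6 FPKM in KO and 261.4 to 290.1 FPKM in WT. None of these 31 markers was at 0 in all libraries. The erythroid, neutrophil and B cell sums did not overlap between the groups. Neither did the sum of 5 T and NK cell genes (99.0 to 114.1 FPKM in KO and 70.3 to 88.5 FPKM in WT). The part of these cell types in the results below was not tested. In such bulk RNA, fewer cells of a type and less RNA per cell cannot be told apart.

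The levels of the genes were compared first. By mean FPKM over the 6 libraries the order was Cdkn1b (27.2), Cdkn2c (23.6), Ccng1 (20.9), Rb1 (16.3), Trp53 (15.4), Mdm2 (11.7), Cdkn1a (9.66), Cdkn1c (2.31), Cdkn2b (0.199) and Cdkn2a (0.127). The ranges over libraries of neighbours in this order overlapped except at 2 steps, between Cdkn1a (7.38 to 12.0 FPKM) and Cdkn1c (1.17 to 3.51 FPKM), and between Cdkn1c and Cdkn2b (0 to 0.582 FPKM). Thus 7 genes had means between 9.66 and 27.2 FPKM, and Cdkn2a and Cdkn2b were close to 0. The INK4 gene outside the list, Cdkn2d, was higher than all of the 10, at 57.2 to 74.1 FPKM.

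**Figure D1:**
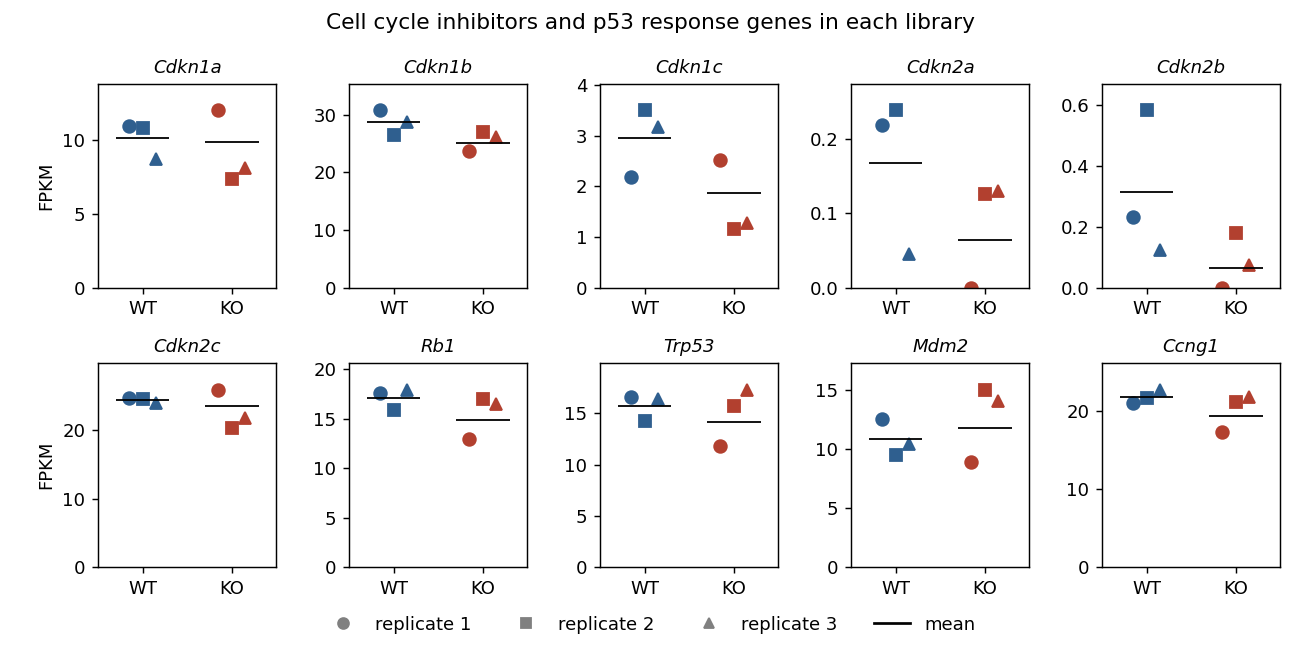
Level of each of the 10 genes (y axis, FPKM, each panel on its own scale from 0) in the WT (blue) and KO (red) libraries, with 1 symbol per replicate and the group mean as a line; the KO mean gives replicates 2 and 3 together the weight of replicate 1. The libraries of the groups overlap in every panel. KO replicate 1 lies away from KO replicates 2 and 3 for Cdkn1a, Cdkn1c, Cdkn2c, Rb1, Trp53, Mdm2 and Ccng1. For Cdkn2a and Cdkn2b, KO replicate 1 is at 0 and KO replicates 2 and 3 are above it.

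To ask whether these genes differed between KO and WT cartilage, the quasi-likelihood model of edgeR was fitted to the 15373 genes whose mean reached 0.5 FPKM, and p-values were adjusted over all of them by the Benjamini-Hochberg method. Of the 10 genes, 8 were tested and none had an adjusted p-value under 0.05, and neither had any other gene (0.0% called). At an unadjusted p-value under 0.05, 0 of the 8 were found, against 13.7% of all tested genes. The 8 genes had a median log2 difference (KO minus WT) of -0.15, with 7 lower and 1 higher. For all tested genes it was -0.016, with 8065 lower and 7308 higher. Of the 7 lower genes, Cdkn1a was at -0.01, and its sign changed with median-of-ratios scaling. Adjusted p-values of the 8 genes by edgeR ranged from 0.577 to 0.993, and from 0.138 to 1 over all alternatives run. In 1 of the 8 genes, Cdkn1b, the KO and WT samples did not overlap in FPKM, against 28.6% of tested genes. With the 6 libraries fitted as labelled, 3.71% of all genes but 0 of the 8 were called.

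Among the Cip/Kip inhibitors, the p21 gene Cdkn1a was at 12.0, 7.38 and 8.10 FPKM in KO replicates 1, 2 and 3 and at 11.0, 10.8 and 8.74 FPKM in WT replicates 1, 2 and 3. KO replicate 1 was thus the highest of the 6 libraries and KO replicates 2 and 3 were the lowest, on either side of WT. The means were 9.88 ± 3.03 FPKM in KO (SD, n = 2) and 10.2 ± 1.23 FPKM in WT (SD, n = 3). The log2 difference was -0.01 (SE 0.235, adjusted p = 0.993 by edgeR). This value rested on which KO library was used. The log2 difference became -0.43 when KO replicate 1 was left out and 0.32 when KO replicates 2 and 3 were left out, neither past the threshold (adjusted p = 0.279 and 0.601 by edgeR). In such fits the lone KO sample is assumed to vary like the WT libraries.

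Cdkn1b, which encodes p27, an inhibitor of quiescent cells, varied least of the Cip/Kip genes. It was at 23.8, 27.0 and 26.1 FPKM in KO replicates 1 to 3 and at 30.8, 26.6 and 28.8 FPKM in WT replicates 1 to 3. KO replicate 2 was above WT replicate 2, so the single libraries overlapped although the merged samples did not. KO minus WT gave a log2 difference of -0.17 (SE 0.116, adjusted p = 0.605 by edgeR), which was -0.15 without KO replicate 1 and stayed between -0.20 and -0.14 whichever libraries were left out.

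Cdkn1c, the imprinted gene of p57, had the largest difference of the 8 genes. It was at 2.51, 1.17 and 1.28 FPKM in KO replicates 1 to 3 and at 2.19, 3.51 and 3.18 FPKM in WT replicates 1 to 3. KO replicates 2 and 3 were below every WT library, and KO replicate 1 lay within the WT range. Its log2 difference was -0.63 (SE 0.400, adjusted p = 0.577 by edgeR). Leaving out KO replicate 1 gave -1.30 (adjusted p = 0.138, unadjusted p = 0.0165 by edgeR), and leaving out KO replicates 2 and 3 gave -0.16. Summed markers of several cell types were likewise higher in KO replicate 1 than in KO replicates 2 and 3. Others were lower in KO replicate 1: osteoblast (595 against 697 and 706 FPKM), T and NK cell (99.0 against 111 and 114 FPKM) and endothelial (16.6 against 18.9 and 17.9 FPKM). The chondrocyte sum was 1227 FPKM in KO replicate 1, 542 and 547 FPKM in KO replicates 2 and 3 and 570 to 736 FPKM in WT, so that KO replicate 1 lay above WT. The erythroid sum was 35731 FPKM in KO replicate 1 against 14817 and 14674 FPKM in KO replicates 2 and 3, and 4 skeletal muscle genes summed to 97.8 FPKM against 4.01 and 3.27 FPKM, with 22.9 to 176.4 FPKM in WT. Their part in the Cdkn1c values was not tested.

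The INK4 genes fell into a detected and a barely detected pair. Cdkn2c, the gene of p18, was at 25.9, 20.4 and 21.8 FPKM in KO replicates 1 to 3 and at 24.8, 24.6 and 24.0 FPKM in WT replicates 1 to 3. As for Cdkn1a, KO replicate 1 was highest and KO replicates 2 and 3 were lowest. The log2 difference was -0.03 (SE 0.151, adjusted p = 0.969 by edgeR), and it moved to -0.25 when KO replicate 1 was left out and to 0.16 when KO replicates 2 and 3 were. Cdkn2d, the gene of p19 of the INK4 family, was at 74.1, 72.8 and 74.1 FPKM in KO replicates 1 to 3 and at 57.2, 68.4 and 65.1 FPKM in WT replicates 1 to 3. The log2 difference of 0.23 (SE 0.142) did not pass the threshold (adjusted p = 0.555 by edgeR).

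Cdkn2a and Cdkn2b, neighbours on chromosome 4 (89274471 to 89294653 and 89306299 to 89311039, GRCm38, minus strand), averaged less than 0.5 FPKM and thus stayed outside the fit. Cdkn2a had 0, 11 and 11 counts in KO replicates 1 to 3 and 17, 17 and 4 counts in WT replicates 1 to 3. The 0 in KO replicate 1 allowed up to 0.0574 CPM (counts scaled to library size, at a floor of 3 counts), while the other libraries were at 0.0707 to 0.323 CPM. By Poisson counting error the upper 95% limit of that 0 was 0.0706 CPM, inside the limits of WT replicate 3 (0.0193 to 0.181 CPM). Such limits and the floor take a count as 1 read, which these estimated counts may not be, so they may be too narrow. The 2 annotated transcripts of the gene start at 89282192 and 89294653 and encode different proteins, p16Ink4a and p19Arf, which the gene counts do not separate. Cdkn2b, the gene of p15, had 0, 18 and 8 counts in KO replicates 1 to 3 and 22, 49 and 11 counts in WT replicates 1 to 3. By the same counting error, the upper limit of its 0 (0.0706 CPM) was below the lower limits of the WT libraries (0.0971 to 0.688 CPM). That limit was also below the lower limit of KO replicate 2 (0.169 CPM), but inside the limits of KO replicate 3 (0.0545 to 0.249 CPM). Both genes were at 0 in the library labelled KO replicate 1. With no filter on low values neither was called, with log2 differences of -1.28 for Cdkn2a (SE 1.41, adjusted p = 0.791 by edgeR) and -2.18 for Cdkn2b (SE 1.20, adjusted p = 0.753 by edgeR). The libraries of each group spread widely, from 0 to 18 counts of Cdkn2b in KO and from 11 to 49 in WT, and the floor covers counting error only.

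Rb1, whose protein is the substrate of the CDKs that these inhibitors restrain, was at 13.0, 17.0 and 16.5 FPKM in KO replicates 1 to 3 and at 17.6, 15.9 and 17.9 FPKM in WT replicates 1 to 3. The log2 difference was -0.19 (SE 0.129, adjusted p = 0.605 by edgeR). KO replicate 1 was the lowest library and KO replicates 2 and 3 lay within the WT range, so that the log2 difference was -0.07 without KO replicate 1 and -0.32 without KO replicates 2 and 3. On the opposite strand, Lpar6 (4.60 to 5.90 FPKM) overlaps the Rb1 gene over 5400 bp and Rcbtb2 (3.86 to 4.74 FPKM) over 24171 bp, and whether the counting used strand is not given in the sources used here. The other pocket proteins differed from Rb1 in sign, with log2 differences of 0.14 for Rbl1 (SE 0.137) and 0.22 for Rbl2 (SE 0.140), and adjusted p-values of 0.754 and 0.581 by edgeR. For Rbl1 the log2 difference was 0.30 without KO replicate 1 and its sign changed without KO replicates 2 and 3 (-0.035), where Rbl2 was at 0.14.

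The p53 axis was examined next. Trp53 was at 11.8, 15.7 and 17.3 FPKM in KO replicates 1 to 3 and at 16.6, 14.3 and 16.4 FPKM in WT replicates 1 to 3. KO replicate 1 was the lowest library and KO replicate 3 the highest. The log2 difference was -0.14 (SE 0.147, adjusted p = 0.777 by edgeR), and it was 0.033 without KO replicate 1 and -0.33 without KO replicates 2 and 3.

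Mdm2 was the single gene of the 8 with a positive difference. It was at 8.92, 15.0 and 14.1 FPKM in KO replicates 1 to 3 and at 12.5, 9.47 and 10.4 FPKM in WT replicates 1 to 3. KO replicate 1 was the lowest library and KO replicates 2 and 3 were the highest. For Mdm2 the log2 difference was 0.13 (SE 0.197, adjusted p = 0.863 by edgeR). It was 0.40 without KO replicate 1 (adjusted p = 0.238 by edgeR) and -0.19 without KO replicates 2 and 3. Mdm4, the relative of Mdm2 that binds p53, was at 9.07, 14.7 and 14.9 FPKM in KO and at 15.4, 9.64 and 11.5 FPKM in WT. It had a log2 difference of -0.02 (SE 0.234, adjusted p = 0.991 by edgeR) whose sign changed with the 6 libraries as labelled (0.080).

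Mdm2 and Cdkn1a, both p53 targets with a decamer before a start, thus ran in opposite directions across the KO libraries. With 2 KO samples, 2 genes can only run the same way or opposite ways, and how often gene pairs do so was not counted. The ratio of the Mdm2 level to the Cdkn1a level (both in FPKM) was 0.742, 2.03 and 1.74 in KO replicates 1 to 3 and 1.14, 0.878 and 1.19 in WT replicates 1 to 3. The WT libraries lay between KO replicate 1 and KO replicates 2 and 3. The ratio of Mdm2 to Trp53 did not show this order. It was 0.753, 0.954 and 0.813 in KO replicates 1 to 3 and 0.757, 0.664 and 0.632 in WT replicates 1 to 3.

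**Figure D2:**
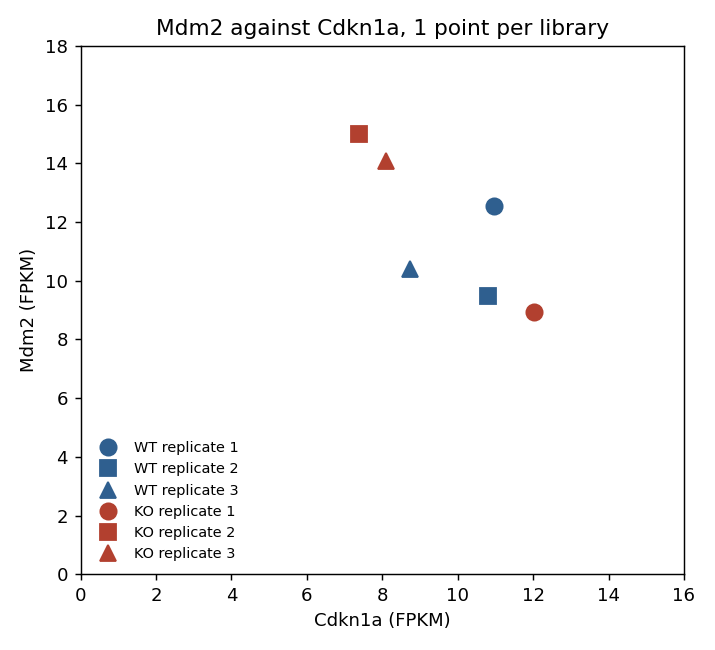
Mdm2 level (y axis, FPKM) against Cdkn1a level (x axis, FPKM), 1 point per library, KO in red and WT in blue. KO replicates 2 and 3 sit at the upper left (7.38 and 8.10 FPKM of Cdkn1a) and KO replicate 1 at the lower right (12.0 FPKM), with the WT libraries between them.

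Ccng1, a p53-induced cyclin that recruits a phosphatase to Mdm2, was at 17.2, 21.1 and 21.7 FPKM in KO replicates 1 to 3 and at 21.0, 21.6 and 22.7 FPKM in WT replicates 1 to 3. KO replicate 1 was below the other 5 libraries, which lay close together. Ccng1 had a log2 difference of -0.16 (SE 0.126, adjusted p = 0.675 by edgeR), and of -0.06 without KO replicate 1 and -0.26 without KO replicates 2 and 3. Its relative Ccng2, which is not a member of the list, had a log2 difference of 0.16 (SE 0.118, adjusted p = 0.638 by edgeR).

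The position of the KO libraries was then counted across the 8 tested genes. In 5 of the 8 (Cdkn1b, Rb1, Trp53, Mdm2 and Ccng1) KO replicate 1 was below every WT library in FPKM, against 37.4% of tested genes. In 4 of the 8 (Cdkn1a, Cdkn2c, Trp53 and Mdm2) the KO samples lay on opposite sides of the WT mean, against 42.6% of tested genes. Neither share was tested. Without KO replicate 1, 2 of the 8 genes (Cdkn1c and Mdm2) had an unadjusted p-value under 0.05, against 20.7% of all genes, and 0 of the 8 were called after adjustment, against 2.29% of all genes.

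**Figure D3:**
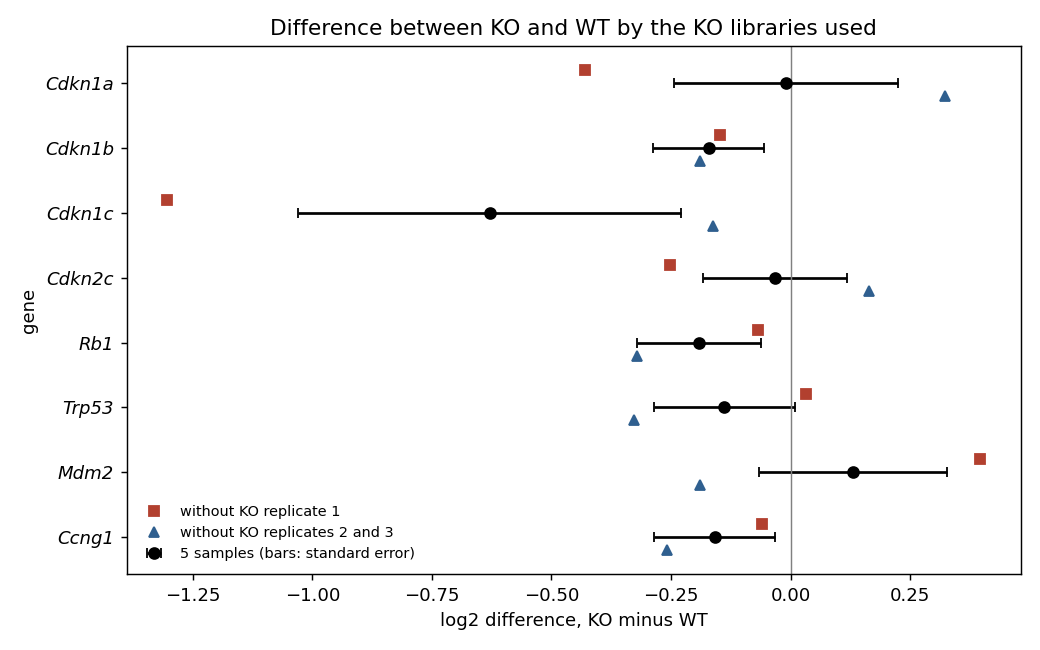
Log2 difference of KO minus WT (x axis) for the 8 tested genes (y axis). Black points are the 5-sample fit with bars of 1 standard error, red squares the fit without KO replicate 1, and blue triangles the fit without KO replicates 2 and 3. The squares and triangles lie on opposite sides of 0 for Cdkn1a, Cdkn2c, Trp53 and Mdm2.

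To set these genes beside the wider p53 response, 31 known p53 targets were described, among them Cdkn1a, Mdm2 and Ccng1. Of these, 28 were tested and 0 were called. Eda2r, Tnfrsf10b and Trp53cor1 were under 0.5 FPKM. The median log2 difference was -0.11, with 18 genes lower and 10 higher, and it was 0.01 without KO replicates 2 and 3. Of all tested genes, 8065 were lower and 7308 higher. At an unadjusted p-value under 0.05 there were 3 higher and 2 lower genes, 17.9% of the 28, near the 13.7% of all tested genes.

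The 3 higher genes were Xpc, a DNA damage sensor of nucleotide excision repair, Apaf1, which forms the apoptosome, and the death receptor gene Fas. Xpc was at 11.4, 12.5 and 12.3 FPKM in KO replicates 1 to 3 and at 7.52, 8.65 and 8.23 FPKM in WT replicates 1 to 3. Its log2 difference was 0.56 (SE 0.133, adjusted p = 0.173 by edgeR). With the 6 libraries as labelled Xpc was called (adjusted p = 0.0371 by edgeR), as it was by DESeq2 on the 5 samples (adjusted p = 0.0101). Over all alternatives its adjusted p ranged up to 0.487. Apaf1 was at 8.95, 14.0 and 15.1 FPKM in KO and at 8.73, 7.24 and 8.24 FPKM in WT, so that KO replicate 1 was close to WT. Its log2 difference was 0.55 (SE 0.182, adjusted p = 0.258 by edgeR), 0.82 without KO replicate 1 (adjusted p = 0.0451) and 0.23 without KO replicates 2 and 3. Fas was at 6.17, 6.61 and 7.53 FPKM in KO and at 5.02, 4.90 and 4.53 FPKM in WT, and differed by 0.47 on the log2 scale (SE 0.168, adjusted p = 0.285 by edgeR). The lower genes at that threshold were Sesn1, a stress-induced inhibitor of mTORC1 signalling, and Phlda3, an inhibitor of Akt that was named after its values were seen. Sesn1 was at 11.1, 9.58 and 9.94 FPKM in KO and at 15.4, 12.9 and 15.2 FPKM in WT (log2 difference -0.45, SE 0.143, adjusted p = 0.243 by edgeR). Phlda3 was at 5.51, 2.74 and 2.56 FPKM in KO and at 10.3, 6.36 and 6.77 FPKM in WT (log2 difference -0.89, SE 0.376, adjusted p = 0.361 by edgeR). For Phlda3, KO replicate 1 was the closest to WT, and the log2 difference was -1.59 without it and -0.42 without KO replicates 2 and 3.

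**Figure D4:**
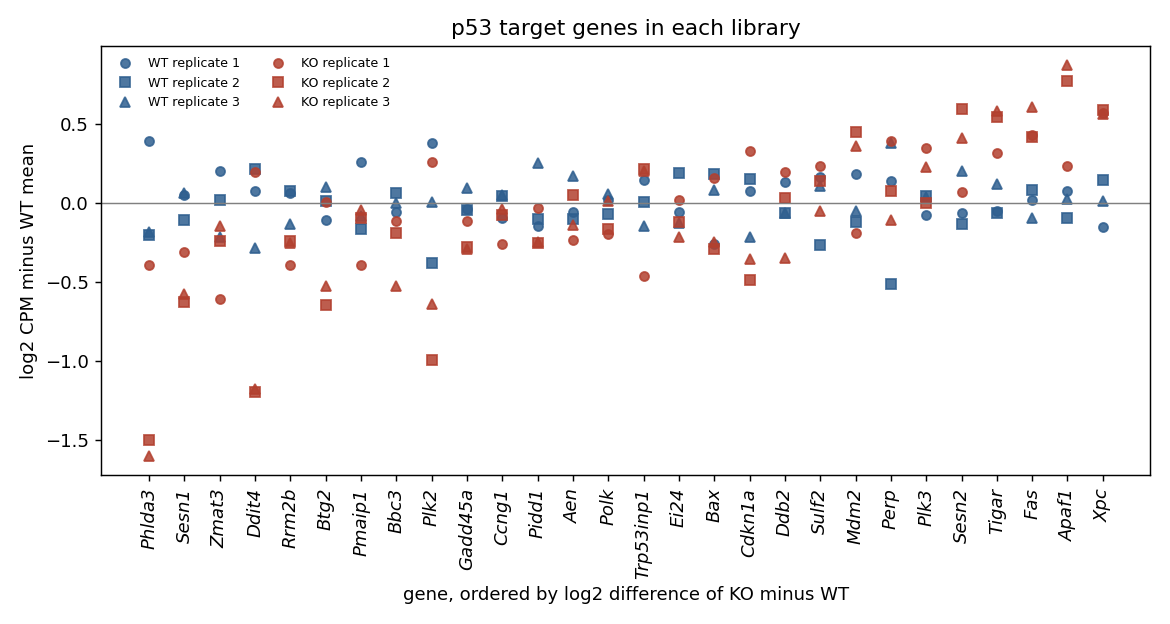
Level of the 28 tested p53 targets in each library, as log2 CPM minus the mean of the WT libraries (y axis), with genes on the x axis ordered by the log2 difference of KO minus WT, KO in red and WT in blue. Cdkn1a, Ccng1 and Mdm2 lie in the middle of the order, with log2 differences from -0.16 to 0.13. For Phlda3, Ddit4 and Plk2 KO replicate 1 lies well above KO replicates 2 and 3.

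Genes that act on p53 or set the phosphorylation of Rb1 were described by the same fit. Of 19 regulators and kinases of p53, 17 were tested and 1, Bmi1, had an unadjusted p-value under 0.05 (5.88%, below the 13.7% of all tested genes). Bmi1, a Polycomb protein that represses Cdkn2a, was at 7.81, 7.74 and 7.73 FPKM in KO and at 10.8, 9.50 and 9.61 FPKM in WT (log2 difference -0.34, SE 0.129, adjusted p = 0.313 by edgeR). The other regulators with the smallest p-values were Kat5, an acetyltransferase of p53 (log2 difference 0.25), Ezh2, a Polycomb methyltransferase (-0.23), and Ppm1d, a phosphatase that reverses p53 phosphorylation (-0.24), with adjusted p-values of 0.442 to 0.520 by edgeR.

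Of 18 G1 cyclins, CDKs and E2F factors, all tested, 4 had an unadjusted p-value under 0.05 (22.2%, against 13.7% of all tested genes) and 0 were called. Cdc25a, a phosphatase that activates CDK2, was at 7.72, 11.0 and 10.6 FPKM in KO and at 6.51, 6.84 and 6.01 FPKM in WT (log2 difference 0.53, SE 0.154, adjusted p = 0.216 by edgeR, and 0.34 without KO replicates 2 and 3). Ccne2, a cyclin partner of CDK2, was at 12.6, 14.4 and 15.5 FPKM in KO and at 17.6, 20.1 and 19.6 FPKM in WT (-0.46, SE 0.138, adjusted p = 0.228 by edgeR). Cyclin D1 (Ccnd1), the partner of CDK4 and CDK6, was at 3.73, 3.03 and 2.90 FPKM in KO and at 7.42, 4.10 and 6.18 FPKM in WT (-0.78, SE 0.258, adjusted p = 0.257 by edgeR). The repressive factor E2f4 was at 46.1, 42.1 and 42.1 FPKM in KO and at 55.8, 52.9 and 65.1 FPKM in WT (-0.37, SE 0.145, adjusted p = 0.326 by edgeR). Of 18 proliferation genes, 0 had an unadjusted p-value under 0.05, with a median log2 difference of -0.01. The proliferation genes with the smallest p-values were Plk1 (0.26), Rrm2 (-0.18), Mcm2 (-0.19) and Pcna (-0.21). Without KO replicate 1 Plk1 was at 0.48 and Pcna at -0.37, and without KO replicates 2 and 3 they were at -0.0093 and -0.06. The summed level of the 18 genes was 805 to 908 FPKM in KO and 851 to 1001 FPKM in WT.

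By the deposited KEGG annotation, 58 tested genes belonged to p53 signaling, 104 to the cell cycle and 135 to cellular senescence. None was called. At an unadjusted p-value under 0.05 there were 3 higher and 4 lower genes for p53 signaling (12.1%), 2 and 6 for the cell cycle (7.69%) and 11 and 12 for senescence (17.0%), and the median log2 differences were -0.05, 0.02 and 0.01. The p53 signaling gene with the smallest p-value was Igf1, a growth factor, at 1.70, 1.12 and 1.03 FPKM in KO and at 3.51, 2.09 and 2.77 FPKM in WT (log2 difference -0.97, SE 0.286, adjusted p = 0.222 by edgeR). Without KO replicates 2 and 3 it was -0.62.

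The genes whose log2 CPM over the 6 libraries was most like that of Trp53 were Ing5, Hspa9 and Pop1 (Pearson's r of 0.995, 0.987 and 0.979). For Cdkn1a they were Habp4, Ptprf and 1300014J16Rik (0.997, 0.997 and 0.996). These values describe 6 points, of which KO replicates 2 and 3 nearly coincide, and they were picked as the highest among all tested genes.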

How the data were processed

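RNA-seq of 6 cartilage libraries was used. Per the labels, oligo(dT)-captured mRNA was made into dUTP-marked libraries with molecular identifiers and sequenced as paired reads of 150 bp. The submitters' processing notes name cutadapt 1.9, HISAT2 2.0.4, UMI-tools, StringTie 1.3.4d, DESeq2 and edgeR without roles. The authors deposited FPKM values, scaled within each library, and whole estimated counts per gene that pile up at 4 (6596 values, against 4170 at 3), so a count was not taken as 1 read. Gene positions were those of GRCm38 (GENCODE M21 matched all 10 genes). 0 sample columns were left unused. The knocked-out gene is not reported here.

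The members and gene lists were chosen with earlier results of these data known. KO replicates 2 and 3 were averaged (counts rounded), because, over genes of 200 to 50000 counts, their median squared count difference was 5.27 times that of Poisson sampling, against 24.9 to 85.5 times for other pairs. Genes averaging 0.5 FPKM or more were tested with edgeR 4.0.16 (TMM scaling, R 4.3.3), and the standard error was taken from the log2 difference and F statistic. Log2 CPM used a prior count of 2. Text names the 10 members, 5 relatives (Cdkn2d, Rbl1, Rbl2, Mdm4, Ccng2), up to 4 genes with the smallest p-values of each of 5 lists and of KEGG p53 signaling, and the 3 genes most like Trp53 and Cdkn1a. The CDK inhibitor and pocket protein list gave Cdkn1c, Cdkn2d, Rb1 and Rbl2, with 0 of its 8 tested genes called. Alternatives were median-of-ratios scaling, no filter, a minimum of 5 FPKM, DESeq2 1.42.0, limma 3.58.1 on log2(FPKM + 1) and log2(FPKM + 0.1), the 6 libraries as labelled, a replicate block, and libraries left out. Division of counts by 4 was added after seeing the data. The fit was tested on simulated data.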

Additional observations from a re-analysis of the deposited data

How the results depend on the processing

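Calls at an adjusted p-value of 0.05 numbered 0 genes in the 5-sample edgeR fit (2106 at an unadjusted p-value under 0.05), 21 with no filter, 880 with DESeq2 and 570 with the 6 libraries as labelled. With libraries left out it ranged from 0 to 352, the highest without KO replicate 1, with 9 without KO replicates 2 and 3 and 1 each without WT replicate 2 and WT replicate 3. The cause was not tested. The number of the 8 genes called was 0 under every alternative run. Their median log2 difference of -0.15 was -0.11 with no filter and -0.19 with a minimum of 5 FPKM (which leaves out Cdkn1c), and ranged from -0.16 to -0.11 with 1 library left out (-0.19 without KO replicates 2 and 3). With the replicate block on the 6 libraries as labelled, 0 genes and 0 of the 8 were called, and the median was -0.14. Same-numbered libraries did not deviate together (correlations across genes of -0.14, -0.11 and -0.06), so the numbers were not taken as pairs.

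Of the 8 genes, Cdkn1b, Cdkn1c, Ccng1 and Rb1 kept their sign in all alternatives. Cdkn1a, at -0.01, became 5.6e-08 with median-of-ratios scaling, 8.2e-05 with DESeq2 and 0.019 with no filter, and ranged from -0.43 to 0.064 with 1 library left out (0.32 without KO replicates 2 and 3). Cdkn2c (0.16) and Mdm2 (-0.19) changed sign without KO replicates 2 and 3, and Trp53 without KO replicate 1 (-0.18 to 0.033 with 1 library left out). Among other named genes Mdm4 was at 0.030 with no filter, 0.080 with the 6 libraries as labelled, 0.077 with the replicate block, and -0.34 to 0.25 with libraries left out, while Plk1 (-0.0093) and Rbl1 (-0.035) changed sign without KO replicates 2 and 3. Xpc was called with DESeq2 and the 6 libraries as labelled, Apaf1 without KO replicate 1, and Igf1 with DESeq2. In the edgeR fit of the Results, with 2 KO samples, differences within the standard errors given could not be resolved. No gene was called in that fit at any observed size of difference, and the smallest difference that it could resolve is not given here. Xpc, at 0.56 (SE 0.133), had an adjusted p of 0.173 by edgeR, and Cdkn1c, at -0.63 (SE 0.400), had 0.577. The low counts of Cdkn2a (0 to 17) and Cdkn2b (0 to 49) limit these genes.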
